A study of Homo sapiens with 72 samples.

Results

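The comparison described here is of IMR-90 lung fibroblasts 0.5 h after α-particle exposure with sham-irradiated IMR-90 cells of the same time. It covers 8 of the 72 arrays of the series, 4 irradiated and 4 control, taken by the treatment and time that their labels give, and each irradiated array was set against the control array with its replicate number. The series followed irradiated, bystander and control cells through 6 time points in 4 experiments, to ask how the response to α-particles unfolds in cells that were hit and in their unhit neighbors. Irradiated cells received 50 cGy of 4He ions through a thin film under the dish, control cells received 0 cGy, and bystander cells had sat behind a film that stops the particles, within the dish of the irradiated cells and in the same medium. All groups were early-passage IMR-90, an untransformed line from human fetal lung, in serum-containing medium, so the results hold for 1 line in culture. Each sample of total RNA was labelled with Cy3 and hybridised to 1 Agilent whole-genome array. The 4 bystander arrays of 0.5 h entered the fit as a further group.

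Stress at the cell surface or in the nucleus is passed on within minutes by kinases. NF-kB waits in the cytoplasm bound to inhibitors, moves to the nucleus when these are degraded, and switches on chemokines, cytokines and the genes of its own inhibitors, which end the response. Mitogen-activated kinases switch on immediate early genes, a class of transcription factors and phosphatases that need no new protein synthesis. DNA damage stabilises p53, while unfolded protein activates heat shock factor and zinc activates metal-responsive factor. In fibroblasts the same signals are known to set secretion of cytokines and matrix proteases against the contractile, matrix-building state.

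The values are log2 intensities after each array was shifted to the same 75th percentile, called levels below, and a difference of 1 between levels is a doubling. Ratios are log2 differences between the irradiated and the control array of a pair, given as the mean ± SD over the 4 pairs, with a p from limma adjusted over all probes. Before the shift the 75th percentile was 10.59, 9.75, 10.39 and 10.59 on irradiated arrays 1 to 4 and 10.66, 10.62, 9.60 and 10.59 on control arrays 1 to 4. The share of spots well above background was 71.6, 66.1, 69.7 and 72.6% on the irradiated arrays and 71.5, 71.8, 65.7 and 72.2% on the control arrays. Control 3 and irradiated 2 were thus the dimmest arrays. Over the probes tested, the SD of the difference between control 1 and control 2 was 0.254, and that between control 3 and control 4 was 0.527, against 0.664 to 0.821 for the other control pairs. Irradiated 3 differed from irradiated 1 by 0.412 and from irradiated 4 by 0.776. Controls therefore fell into 1 and 2 against 3 and 4, while irradiated 3 lay nearer to irradiated 1 and 2. These values do not tell whether an array of replicate 3 carries the wrong label. The labels were kept, and each value of pair 3 and each paired test rests on them. Controls 1 and 2 differed by more than the repeated spots of an array do: over 193 probes with repeated spots the SD of the difference in probe means was 0.173 and the spots alone give 0.0214. That does not tell 2 cultures from 2 hybridisations of 1 RNA, so they were counted as 2 samples by their replicate labels, and the calls with replicates 1 and 2 averaged are given too. Nothing in the labels says more about the samples than that they belong to separate replicates, though the study's methods describe 4 independent experiments. The p-values rest on the residual spread of irradiated, control and bystander arrays after replicate differences are removed. They do not rest on the SD of the 4 pairs alone. Irradiated and bystander cells of a replicate shared a dish, but beyond the replicate block the fit treats their arrays as independent. With bystander arrays left out 647 probes were called, against 2504 with them. That fit also has fewer arrays, and the effect of the shared dish on the p-values was not tested.

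The cells carried the fibroblast identity that their label gives. All 10 fibroblast markers were above background on the 8 arrays, with mean levels of 17.70 and 18.15 in irradiated and control cells for COL1A2, a chain of type I collagen, and 17.56 and 17.85 for the intermediate filament vimentin. Among these 10, THY1, a surface antigen of fibroblasts, passed the test with a mean ratio of -1.07 (adjusted p = 0.0448), and the other 9 did not pass. That share is near the 10.7% of all genes called. The log2 of the summed intensity of the 10 markers was 19.92, 19.97, 19.72 and 19.85 on irradiated arrays and 20.21, 20.04, 20.59 and 20.25 on control arrays, lower after irradiation in each pair. Markers of other cells were in part above background too, on all 8 arrays for 4 of 8 epithelial (KRT14, KRT19, SFTPC and MUC1), 3 of 6 endothelial (VWF, KDR and TEK), 4 of 8 leukocyte (CD3E, CD14, ITGAM and CD68) and 1 of 4 erythroid markers. E-cadherin and KRT5 of epithelium, PECAM1 of endothelium and LYZ of leukocytes were above background on 0 of the 8 arrays, and PTPRC, the pan-leukocyte antigen, on 1. On the same log2 scale of summed intensity the 8 leukocyte markers gave 10.14, 9.92, 9.83 and 10.41 on irradiated and 9.70, 9.61, 9.54 and 9.81 on control arrays, higher after irradiation in each pair, and the most abundant of them was CD68, a lysosomal glycoprotein that fibroblasts also express, which was the 1 leukocyte marker called (0.54, adjusted p = 0.0415). Epithelial markers gave 10.18, 10.13, 10.36 and 10.07 on irradiated and 10.71, 10.60, 10.85 and 10.33 on control arrays, lower in each pair, and the most abundant was MUC1, a membrane mucin. Only 3 of the 8 leukocyte, 4 of the 8 epithelial, 4 of the 6 endothelial (led in level by TEK) and 1 of the 4 erythroid markers passed the filter and were tested. Besides CD68 0 of these were called, beside 10.7% of all genes. In bulk RNA a smaller share of a cell type and less RNA per cell cannot be told apart, and the part of other cells in the results was not tested.

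Within 0.5 h of exposure a large part of the measured transcriptome differed between irradiated and control cells. At an adjusted p below 0.10 in limma's moderated test with the replicate number as a block, 2504 of 25245 probes were called (9.92%), with 1465 higher after irradiation (5.8%) and 1039 lower (4.12%). The difference was at least 2-fold for 278 of the probes called higher and 143 of those called lower, and at least 4-fold for 37 and 3. With 1 probe per gene, 10.7% of 13125 genes were called, 754 higher (5.74%) and 644 lower (4.91%), and for 9.62% the 4 irradiated levels did not overlap the 4 control levels. Calls higher kept their direction in all 4 pairs for 1432 of 1465 probes, and calls lower for 1012 of 1039. The probes were called by a test on the same pairs, so this sign is not independent of the choice. These calls rest on the pairing and on replicate 2. Without replicate 2, 0 probes passed, and 0 passed when replicates 1 and 2 were averaged into 1. All 2504 estimates kept their direction in both, which is not independent of their choice on these arrays. Without replicate 3, whose control was the dimmest array, 1447 passed, and 488 passed without replicate 1, 350 without replicate 4 and 14 without the replicate block. With arrays left unscaled, as the study left them, 206 passed, and in the paired fit on the 8 arrays alone, without bystander arrays, 647. Every gene called in the text therefore lost its call without replicate 2.

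The 8 arrays lay on 3 slides, each with both groups. Slide 1 held irradiated 1 and controls 1 and 2, slide 2 held irradiated 2 and 4 and control 4, and slide 3 held pair 3. Within slides 1 to 3 the median difference between irradiated and control arrays was 0.45, 0.63 and 0.98 for the probes called higher and -0.36, -0.70 and -0.84 for those called lower. These probes were chosen on the same arrays, so the sign of these medians is not independent of the choice. Of the gene lists used below, p53 targets, with medians of 0.21, -0.10 and -0.29, and mitotic genes, with -0.82, 0.28 and 0.95, were among those that changed sign between slides. PTGS2 gave 2.85, 1.20 and 2.92 and TNFAIP3 1.71, 2.05 and 2.58 within slides, and ACTA2 -1.39, -1.48 and -0.87, so each kept its direction on every slide. They too were chosen on the same arrays. With slide in place of the replicate number as the block 45 probes were called, and with both 310.

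**Figure D1:**
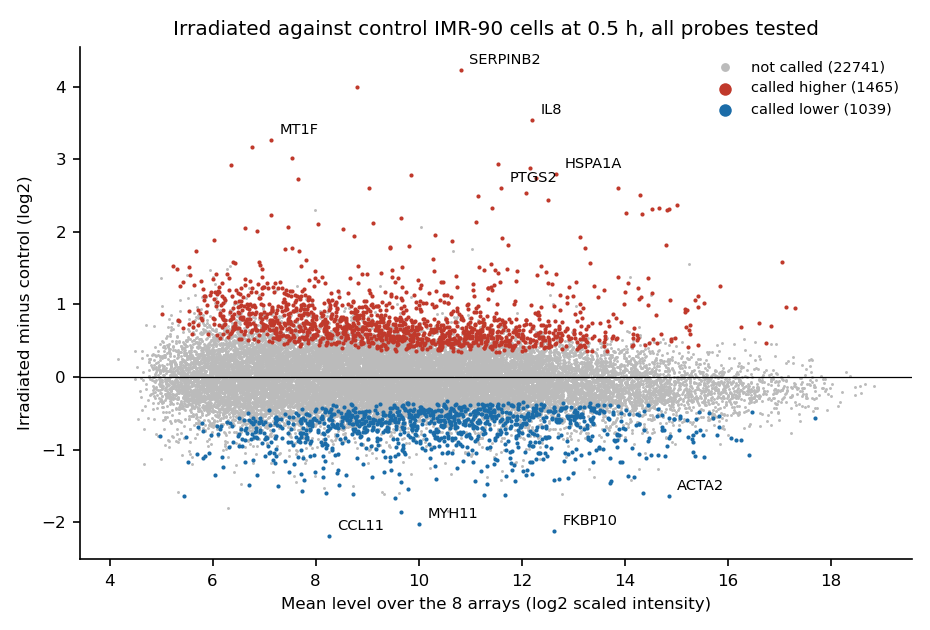
The mean log2 ratio of irradiated to control cells is plotted against the mean level over the 8 arrays for each probe tested, with called probes in color. The 1465 probes called higher reach 4.22 in SERPINB2, whereas the 1039 called lower reach -2.19 in CCL11, so the rises extend farther than the falls.

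SERPINB2, the plasminogen activator inhibitor of type 2, rose most among the genes that passed the filter on dim probes. Its levels were 13.91, 14.03, 12.45 and 11.34 on the irradiated arrays and 8.03, 8.15, 9.82 and 8.82 on the control arrays, so the groups did not overlap. The mean log2 ratio over the 4 pairs was 4.22 ± 1.91 (SD, n = 4), which is 18.7-fold (adjusted p = 0.0317). IL8, a chemokine for neutrophils, had levels of 14.66, 14.61, 14.24 and 12.39 on the irradiated arrays and 9.82, 9.64, 11.76 and 10.54 on the control arrays, again without overlap, and a ratio of 3.54 ± 1.60 (adjusted p = 0.0251). In both genes pairs 1 and 2 gave about the same large ratio and pairs 3 and 4 a smaller one, at 4.85, 4.96, 2.48 and 1.85 for IL8. The 15 genes with the largest rise also included MMP3, stromelysin, at 2.93 ± 0.72 (adjusted p = 0.0251), PTGS2, the inducible cyclooxygenase, at 2.60 ± 0.59 (adjusted p = 0.00614), IL6 at 2.53 ± 0.65 (adjusted p = 0.0323) and CXCL2 at 2.44 ± 0.46 (adjusted p = 0.00688). Metallothioneins MT1F, MT1M, MT1E and MT1G and the heat shock protein gene HSPA1A were among them and are given with their families. The rest were NEFM, a neurofilament subunit, at 3.17 ± 1.70, GADD45G, a stress-induced relative of GADD45A, at 3.02 ± 2.19, the annexin ANXA10 at 2.91 ± 2.15 and RRAD, a small Ras-like GTPase, at 2.60 ± 2.40. RRAD differed widely between pairs (4.52, 4.78, 0.09 and 1.02), and its other probe, at 2.30, missed the threshold (adjusted p = 0.131). NEFM has a further probe with a ratio of -0.26 (adjusted p = 0.654), so its rise belongs to 1 probe.

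The largest falls were smaller than the largest rises. CCL11, the eosinophil chemokine eotaxin, had levels of 8.14, 7.91, 5.86 and 6.77 on the irradiated arrays and 8.76, 8.71, 10.43 and 9.53 on the control arrays. All irradiated levels were below all control levels, and the ratio was -2.19 ± 1.86 (adjusted p = 0.0755), from -0.62 in pair 1 to -4.56 in pair 3. FKBP10, an endoplasmic reticulum chaperone of collagen, gave -2.12 ± 1.27 (adjusted p = 0.0431), and MYH11, the smooth muscle myosin heavy chain, -2.02 ± 1.84 (adjusted p = 0.0824), with -4.69 in pair 4 alone. ACTA2, smooth muscle α-actin, had levels of 14.74, 14.46, 14.75 and 12.19 on the irradiated arrays and 16.17, 16.10, 15.61 and 14.81 on the control arrays. Its groups did not overlap, and its ratio of -1.63 ± 0.73 (adjusted p = 0.0227) was lowest in pair 4. Secreted antagonists and ligands of the BMP family were also among the 15 largest falls, with CHRDL2 at -1.63 ± 1.41 and GDF10 at -1.61 ± 1.24, as were the metalloprotease ADAMTS8 (-1.62 ± 1.32), the monooxygenase FMO2 (-1.60 ± 1.14), the keratin KRT3 (-1.44 ± 0.54) and KCNH2, a voltage-gated potassium channel (-1.43 ± 0.75). Across the fits tried the ratio of CHRDL2 ranged from -1.92 to -0.92 and that of GDF10 from -1.96 to -1.09. SHISA3, PLEKHA2, TMEM130, FAM131C and ARMC6 made up the rest, from -1.43 in ARMC6 to -1.60 in SHISA3.

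**Figure D2:**
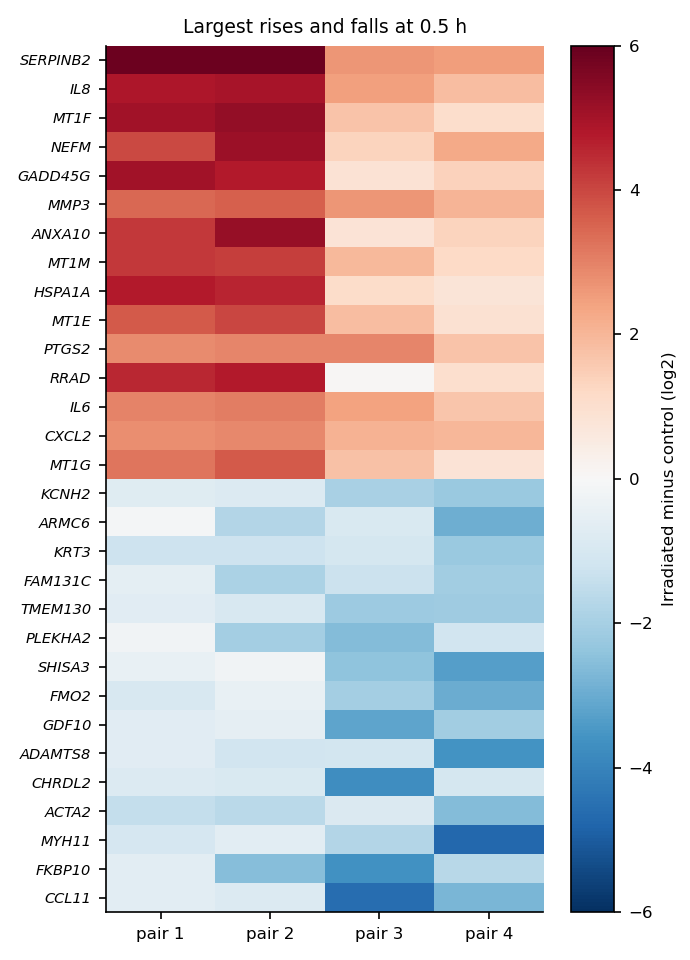
Log2 ratios of irradiated to control cells in each of the 4 pairs of arrays (columns) are shown for the 15 largest rises and the 15 largest falls among called genes (rows), red above 0 and blue below. SERPINB2 runs from 5.88 in pair 1 to 2.52 in pair 4, while CCL11 runs from -0.62 to -4.56, with the highest ratio of each rise in pair 1 or 2 and the lowest of each fall in pair 3 or 4.

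Most of the inflammatory ligands tested rose. Of 27 chemokines and cytokines listed, 20 passed the filter on dim probes and were tested, and of these 13 rose and 1 fell (70.0% called, beside 10.7% of all genes), with a median log2 ratio of 1.21 beside -0.06 over all genes tested. IL6, a cytokine of the acute phase, had levels of 13.95, 14.22, 13.90 and 11.33 on the irradiated arrays and 10.98, 11.14, 11.49 and 9.68 on the control arrays. Irradiated 4 was the lowest of its group and lay below control 3, so the groups overlapped, although each irradiated array was above its own control (2.97, 3.08, 2.41 and 1.66). CXCL2, a neutrophil chemokine, had levels of 14.37, 14.47, 12.69 and 13.38 on the irradiated arrays and 11.58, 11.59, 10.59 and 11.39 on the control arrays, with no overlap and a ratio of 2.44 ± 0.46 (adjusted p = 0.00688). Its relatives CXCL3, CXCL5 and CXCL1 gave 2.32 ± 0.71 (adjusted p = 0.0227), 1.53 ± 0.85 (adjusted p = 0.0427) and 1.25 ± 0.39 (adjusted p = 0.0284). CXCL1, CXCL2 and CXCL3 are close paralogs, and how far their probes are shared between them is uncertain. The interleukin 1 genes rose as well, IL1B by 1.55 ± 0.55 and IL1A by 1.54 ± 0.34, as did IL33, a nuclear alarmin of the same family, by 2.01 ± 1.18. IL11 and LIF, which signal like IL6 through gp130, gave 1.16 ± 0.42 (adjusted p = 0.0323) and 1.38 ± 0.98 (adjusted p = 0.0515), and TSLP, a cytokine of the IL7 family, 0.69 ± 0.18 (adjusted p = 0.0323). CXCL6, a further relative of CXCL5 and named after its values were seen, gave 0.81 ± 0.52 (adjusted p = 0.0990). The member that fell was CCL11. Of the 20 genes, 7 had groups that did not overlap, beside 9.62% of all genes.

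**Figure D3:**
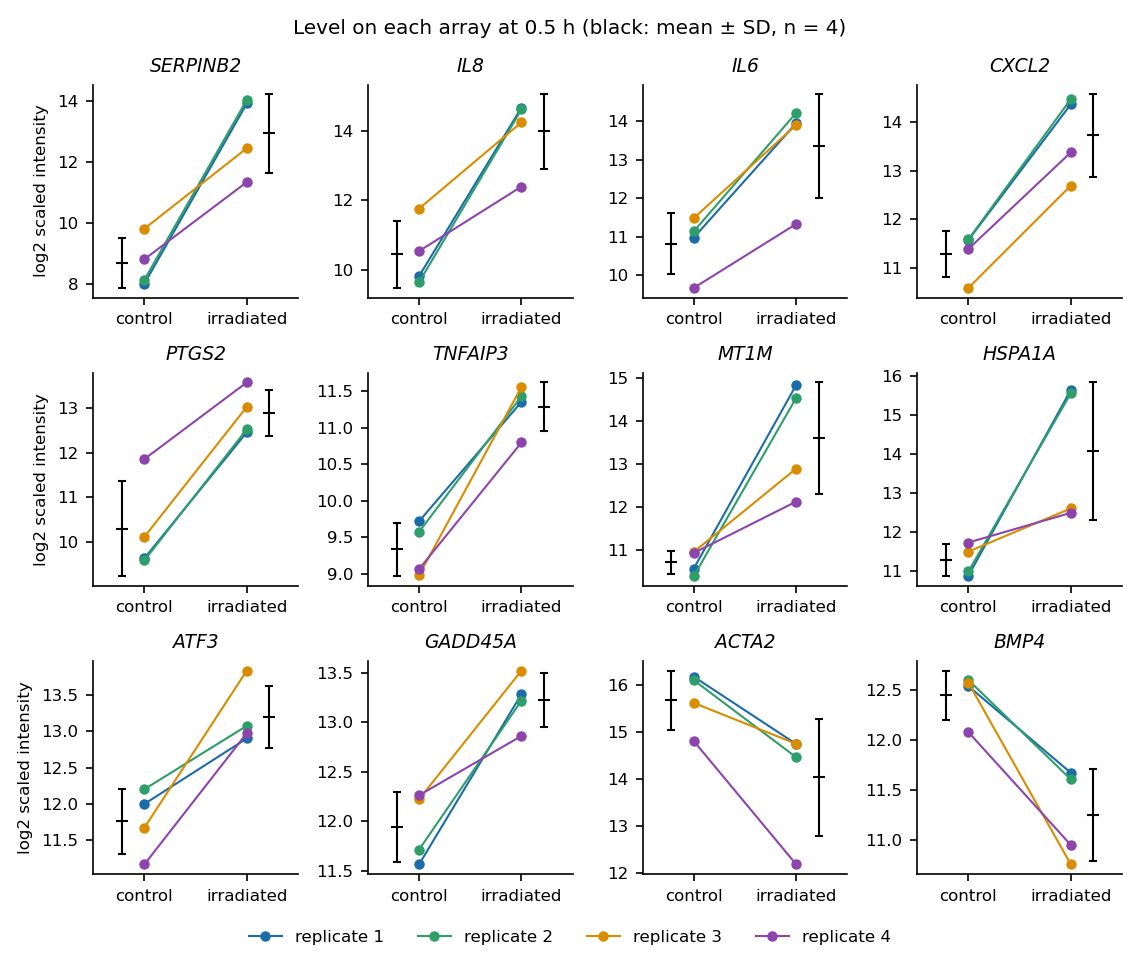
Levels (log2 scaled intensity, each panel on its own axis) of 12 genes on each control and irradiated array at 0.5 h, with the arrays of a replicate joined by a line and the mean ± SD (n = 4) in black beside each group. All lines rise for the first 10 genes, SERPINB2 to GADD45A, and fall for ACTA2 and BMP4, and in HSPA1A the lines of replicates 1 and 2 rise by 4.75 and 4.56 and those of replicates 3 and 4 by 1.10 and 0.76.

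A few probes, among them those of the cytokine genes CCL20, CCL26 and IL24, were above background in irradiated but not in control cells. Of the 41000 probes on the array, 10 were well above background on all 4 irradiated arrays and on 0 of the 4 control arrays. The reverse held for 6. All of them failed the filter on dim probes, so they are given as bounds. CCL20, a chemokine for dendritic cells and lymphocytes, had levels of 8.74, 8.96, 6.97 and 5.25 on irradiated arrays and was at least 26.2-fold higher than in controls. In the fit without the filter its adjusted p was 0.102, just over the threshold. CCL26, a further eotaxin, was at least 23.7-fold higher (adjusted p = 0.175), and IL24, a cytokine of the IL10 family, at least 16.4-fold (adjusted p = 0.0753), with a second probe at 14.5-fold. DHRS2, a mitochondrial and nuclear reductase, was at least 18.1-fold higher (adjusted p = 0.0560) and NPPC, the precursor of C-type natriuretic peptide, at least 7.26-fold (adjusted p = 0.119). In the other direction the imprinted noncoding RNA H19 was at least 6.21-fold lower after irradiation (adjusted p = 0.128) and MEGF10, an engulfment receptor, at least 4.02-fold (adjusted p = 0.261). Each bound sets the mean of the bright group against the higher of the dim probe's own signal and the lowest signal above background on its array.

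Some genes that restrain NF-kB rose. Among 23 genes for subunits and feedback inhibitors of NF-kB, 8 rose and 0 fell (34.8% called, beside 10.7% of all genes), with a median ratio of 0.40. TNFAIP3, the ubiquitin-editing inhibitor A20, had the lowest adjusted p of all genes named here. Its levels were 11.35, 11.43, 11.56 and 10.80 on the irradiated arrays and 9.72, 9.57, 8.98 and 9.06 on the control arrays, well apart, and its ratio was 1.95 ± 0.43 (adjusted p = 0.00490). The inhibitor of apoptosis genes BIRC3 and BIRC2 gave 2.05 ± 0.48 (adjusted p = 0.0227) and 0.72 ± 0.60 (adjusted p = 0.0848). NFKBIZ, a nuclear member of the IkB family, rose by 1.49 ± 0.74 and ZC3H12A, an endonuclease that degrades cytokine mRNA, by 1.40 ± 0.50. Of the subunits, REL rose by 1.24 ± 0.65 and RELB by 0.81 ± 0.36. NFKBIA, the main cytoplasmic inhibitor, gave 0.72 ± 0.44 (adjusted p = 0.0828) with overlapping groups, and controls 3 and 4, at 15.43 and 15.20, were its highest controls. The inhibitors NFKBIB, NFKBIE, TNIP1, TNIP2 and CYLD and the IkB family member BCL3 were not called. Nor were the genes for IkB kinase subunits and TRAF adaptors in the list.

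The promoters of both groups were searched from 250 bases before to 50 after the start, on both strands. RefSeq (GRCh38.p14) gave a promoter for 12 of 14 chemokine and cytokine genes and 7 of 8 NF-kB genes among those called. A match to the NF-kB consensus was found in 6 of 12 and 5 of 7 of them, beside 5.91% of 35116 promoters in the table. The AP-1 motif TGANTCA was found in 3 of 12 and 0 of 7 (7.71% of all), and the cyclic AMP element TGACGTCA in 0 of 12 and 1 of 7 (1.85% of all). To show how far the sites resemble each other, the stretch around the match is given for each called gene of both groups with an NF-kB match and, with the AP-1 motif, for SERPINB2 and IL8, the largest rises among genes that passed the filter. Each runs 5′ to 3′ in the direction of transcription, with bases that match the NF-kB consensus, or for the last pair the AP-1 motif, in capitals. In CXCL1, CXCL2, CXCL3, CXCL5, CXCL6 and REL the capitals cover overlapping matches on both strands. A match is a run of letters and no evidence of binding. A promoter without a match, such as that of IL8 for NF-kB, can still hold a site that departs from the consensus.
CXCL1: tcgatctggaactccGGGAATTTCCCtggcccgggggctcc
CXCL2: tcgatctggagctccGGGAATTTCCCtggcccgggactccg
CXCL3: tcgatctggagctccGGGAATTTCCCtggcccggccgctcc
CXCL5: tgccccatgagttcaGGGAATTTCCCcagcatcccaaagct
CXCL6: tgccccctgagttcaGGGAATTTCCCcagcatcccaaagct
IL6: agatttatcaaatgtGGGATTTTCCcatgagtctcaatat
TNFAIP3: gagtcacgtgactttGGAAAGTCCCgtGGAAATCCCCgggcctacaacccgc
BIRC3: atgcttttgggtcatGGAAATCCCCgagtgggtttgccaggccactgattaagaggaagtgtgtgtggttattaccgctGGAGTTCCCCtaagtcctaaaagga
NFKBIZ: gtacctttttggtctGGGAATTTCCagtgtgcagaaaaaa
NFKBIA: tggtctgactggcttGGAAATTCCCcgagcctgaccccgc
REL: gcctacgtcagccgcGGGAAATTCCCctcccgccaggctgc
SERPINB2: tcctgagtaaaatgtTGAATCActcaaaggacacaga
IL8: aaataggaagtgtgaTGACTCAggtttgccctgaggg

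These stretches lie at chr4:73869299-73869339, plus strand (CXCL1), chr4:74099248-74099288, minus strand (CXCL2), chr4:74038743-74038783, minus strand (CXCL3), chr4:73998743-73998783, minus strand (CXCL5), chr4:73836573-73836613, plus strand (CXCL6), chr7:22727112-22727151, plus strand (IL6), chr6:137867177-137867228, plus strand (TNFAIP3), chr11:102317270-102317373, plus strand (BIRC3), chr3:101827752-101827791, plus strand (NFKBIZ), chr14:35404806-35404845, minus strand (NFKBIA), chr2:60881512-60881552, plus strand (REL), chr18:63887588-63887624, plus strand (SERPINB2) and chr4:73740417-73740453, plus strand (IL8, CXCL8 in RefSeq). All are upstream of the start of transcription and outside the transcript. CXCL1, CXCL2 and CXCL3 share nearly the whole stretch, at the same distance from their starts to within 1 base. The CArG box, the site of serum response factor, was found in 1 of 9 promoters of called immediate early genes, that of EGR1, beside 1.29% of all. Among the 15 largest falls, 1 of 8 promoters held an NF-kB match (FAM131C), and 0 of 8 an AP-1 match.

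Among other genes known as NF-kB targets, 11 of 23 tested rose and 2 fell (56.5% called, beside 10.7% of all genes), and the median was 0.63 (0.42 without replicate 2). PTGS2 had levels of 12.46, 12.53, 13.03 and 13.58 on the irradiated arrays and 9.63, 9.59, 10.11 and 11.86 on the control arrays. Replicate 4 was highest in both groups, yet the groups did not overlap, and the ratio of PTGS2 was above 1 in each pair (2.83, 2.94, 2.92 and 1.72). GCH1, which makes the cofactor tetrahydrobiopterin, gave 1.78 ± 0.48 (adjusted p = 0.0227), and the mitochondrial superoxide dismutase SOD2 1.23 ± 0.55 (adjusted p = 0.0301). Of the 4 matrix proteases in the list, MMP3 rose as given above, MMP10 by 1.42 ± 0.35 (adjusted p = 0.0251) and the interstitial collagenase MMP1 by 2.26 ± 0.95 (adjusted p = 0.0301), while the gelatinase MMP9 gave 0.29 ± 0.56 (adjusted p = 0.370). The genes that fell were PTX3, a pentraxin of innate immunity, at -0.63 ± 0.22 (adjusted p = 0.0323), and the transcription factor IRF1 at -0.52 ± 0.33 (adjusted p = 0.0897). MMP1, MMP9, PTX3 and IRF1 were named after their values were seen. BCL2A1, also chosen after its values were seen, had probes that disagreed. The probe taken for the gene gave -0.19 ± 0.67 (adjusted p = 0.621) and the other one 2.07 ± 0.69 (adjusted p = 0.0345).

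In the plasminogen system 3 of 7 genes rose and 0 fell (42.9% called, beside 10.7% of all genes). Besides SERPINB2 these were SERPINB8, an intracellular serpin, at 0.70 ± 0.63 (adjusted p = 0.0941), and PLAUR, the urokinase receptor, at 0.54 ± 0.38 (adjusted p = 0.0875).

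Receptors for these ligands, and the pathways downstream of secreted cytokines and interferon, had medians of -0.15, -0.04 and -0.0021, beside -0.06 over all genes. Without replicate 1 the median of interferon-stimulated genes was -0.32. The share called was 18.2% for the receptors, 15.4% for the STAT3 pathway and 15.4% for interferon-stimulated genes, beside 10.7% of all genes tested. Of 11 receptors and adaptors for interleukin 1 and TNF, 0 rose and 2 fell, namely TNFRSF1A, the widely expressed TNF receptor, at -0.97 ± 0.47 (adjusted p = 0.0739), and the adaptor MYD88 at -0.53 ± 0.24 (adjusted p = 0.0638). The adaptor TRADD gave -0.54 ± 0.55 (adjusted p = 0.131) and IRAK3, a brake on the pathway, 0.34 ± 0.20 (adjusted p = 0.135). In the STAT3 pathway, which IL6, IL11 and LIF feed, 1 of 13 genes rose and 1 fell, and both were feedback inhibitors, SOCS2 at 0.48 ± 0.19 (adjusted p = 0.0860) and SOCS1 at -1.003 ± 0.73 (adjusted p = 0.0706). CISH gave -0.49 ± 0.36 (adjusted p = 0.114) and BCL6 0.30 ± 0.24 (adjusted p = 0.175). Of 13 interferon-stimulated genes 0 rose and 2 fell, the GTPase MX2 at -0.78 ± 0.44 (adjusted p = 0.0575) and the transcription factor IRF9 at -0.72 ± 0.37 (adjusted p = 0.0847). IFI44 gave 0.86 ± 0.87 (adjusted p = 0.117) and the RNA sensor DDX58 0.39 ± 0.10 (adjusted p = 0.101).

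Immediate early genes rose in part. Of 38 tested, 11 rose (28.9%, beside 5.74% of all genes) and 0 fell, with a median of 0.69 (0.35 without replicate 3), and 32 had a mean ratio above 0. With arrays unscaled 0 of the 38 were called, and in the fit on the 8 arrays alone 4 rose. ATF3, a stress-induced transcription factor, had levels of 12.90, 13.08, 13.84 and 12.98 on the irradiated arrays and 11.996, 12.20, 11.67 and 11.16 on the control arrays, which did not overlap, and a ratio of 1.44 ± 0.65 (adjusted p = 0.0400). The EGR zinc finger genes EGR2, EGR3 and EGR1 gave 1.20 ± 0.55 (adjusted p = 0.0299), 1.37 ± 0.93 (adjusted p = 0.0474) and 0.49 ± 0.28 (adjusted p = 0.0706). The orphan nuclear receptors NR4A3, NR4A1 and NR4A2 rose by 1.24 ± 0.72, 1.02 ± 0.66 and 0.87 ± 0.86. HES1, a target of Notch, rose by 1.10 ± 0.78, TIPARP, a target of the aryl hydrocarbon receptor, by 1.10 ± 0.30, IER2 by 0.75 ± 0.29 and ZFP36, which destabilises cytokine mRNA, by 0.92 ± 0.73. For these 11 genes pair 3 gave the largest ratio, as in EGR3 with 0.63, 0.89, 2.72 and 1.24.

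Of 17 feedback regulators of MAP kinases 5 rose and 0 fell (29.4% called, beside 10.7% of all genes), with a median of 0.19 (0.03 without replicate 3). DUSP2, a nuclear phosphatase of ERK and p38, had levels of 12.89, 12.63, 13.21 and 9.94 on the irradiated arrays and 10.64, 10.56, 10.28 and 8.67 on the control arrays. Replicate 4 was lowest in both groups, so that irradiated 4 lay below controls 1 to 3, but the ratio was above 1 in each pair (2.13 ± 0.68 (adjusted p = 0.0227)). DUSP5 and DUSP1 gave 1.26 ± 0.89 (adjusted p = 0.0558) and 0.97 ± 0.74 (adjusted p = 0.0700), and SPRY2, an inhibitor of receptor tyrosine kinase signals, 0.90 ± 0.73 (adjusted p = 0.0807). Ligands of the EGF receptor family were few: EREG rose by 0.76 ± 0.29 and NRG1 by 0.65 ± 0.50, though 2 further probes of NRG1 were not called. AREG gave 0.45 ± 0.23 (adjusted p = 0.113) and HBEGF 1.16 ± 1.11 (adjusted p = 0.120), and a further probe of HBEGF was called at 1.31 (adjusted p = 0.0959).

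Most metallothioneins, small proteins that bind zinc and copper, rose. Of 11 tested, 10 rose and 0 fell, beside 5.74% of all genes higher, and MT3, the brain form, gave -0.82 ± 0.76 (adjusted p = 0.102). The zinc exporter SLC30A1, in the same list, rose by 0.79 ± 0.33 (adjusted p = 0.0323), and the median over all 12 genes of the list, 2.32, was the highest of the lists examined. MT3 and SLC30A1 were named after their values were seen. MT1M had levels of 14.83, 14.53, 12.89 and 12.13 on the irradiated arrays and 10.57, 10.39, 10.95 and 10.93 on the control arrays. Irradiated 1 and 2 were far above all controls and irradiated 3 and 4 less far. The ratios of MT1M were 4.26, 4.14, 1.94 and 1.19, and the mean was 2.88 ± 1.55 (adjusted p = 0.0361). MT1F gave 3.26 ± 2.19 (adjusted p = 0.0385) and MT1E 2.61 ± 1.46 (adjusted p = 0.0323), while MT1G, MT1X, MT1L and MT1H lay between 2.30 and 2.37. These genes are near-identical copies whose probes may bind each other's transcripts, so the count of metallothioneins is less certain than the rise of the family. By pair the list's median was 3.18, 3.50, 1.73 and 0.83.

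Among heat shock genes HSPA1A, the inducible HSP70, had its highest ratios in pairs 1 and 2. Its levels were 15.63, 15.55, 12.60 and 12.49 on the irradiated arrays and 10.88, 10.99, 11.50 and 11.73 on the control arrays and its ratio was 2.79 ± 2.16 (adjusted p = 0.0610), and it cannot be told from its copy HSPA1B by these probes. Of 15 heat shock genes 9 rose and 1 fell (66.7% called, beside 10.7% of all genes), with a median of 0.60, and by pair 0.75, 0.76, 0.44 and 0.20. In the fit on the 8 arrays alone 1 rose and 0 fell, and with arrays unscaled 4 rose and 0 fell. HSP90AA1, the inducible HSP90, gave 1.06 ± 0.41 (adjusted p = 0.0251), HSPH1 1.18 ± 0.72 (adjusted p = 0.0471) and HSPA4L 0.73 ± 0.25 (adjusted p = 0.0551). HSPB1, a small heat shock protein that binds actin, was the 1 that fell, at -0.73 ± 0.35 (adjusted p = 0.0520). Among 11 genes of the oxidative stress response 6 rose and 0 fell (54.5% called), with a median of 0.97 (0.64 without replicate 1). These included the cystine transporter SLC7A11 at 1.43 ± 0.61 (adjusted p = 0.0242), the glutathione synthesis subunit GCLM at 0.98 ± 0.62 (adjusted p = 0.0516), thioredoxin reductase TXNRD1 at 0.99 ± 0.72 (adjusted p = 0.0576) and malic enzyme ME1 at 0.76 ± 0.52 (adjusted p = 0.0527). In pair 4 the ratios of GCLM and TXNRD1 were only 0.10 and 0.05. PPP1R15A, which restarts translation after stress, rose by 1.20 ± 0.41 (adjusted p = 0.0227).

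Among DNA damage genes, some p53 targets rose. Of 29, 6 rose (20.7%, beside 5.74% of all genes) and 0 fell. The median was 0.10 (0.02 without replicate 4), and by pair 0.25, 0.25, -0.29 and 0.27, so that pair 3 alone lay below 0. GADD45A, a growth arrest gene, had levels of 13.28, 13.22, 13.52 and 12.86 on the irradiated arrays and 11.56, 11.71, 12.22 and 12.26 on the control arrays, with no overlap, and rose by 1.28 ± 0.49 (adjusted p = 0.0227). GDF15, a secreted member of the TGF-beta family, gave 1.36 ± 0.84 (adjusted p = 0.0430), the proapoptotic PMAIP1 (NOXA) 0.95 ± 0.39 (adjusted p = 0.0323) and MDM2, the ubiquitin ligase of p53, 0.85 ± 0.19 (adjusted p = 0.0402). The others, named after their values were seen, were the kinase PLK3 at 0.73 ± 0.30 (adjusted p = 0.0497) and RRM2B, a subunit of ribonucleotide reductase, at 0.80 ± 0.47 (adjusted p = 0.0520). Of 16 genes of double-strand break repair 0 rose and 0 fell, beside 10.7% of all genes called, with a median of 0.27. Those with the lowest adjusted p were XRCC4 at 0.45 ± 0.32 (adjusted p = 0.114), MRE11A at 0.54 ± 0.49 (adjusted p = 0.118), ATM at 0.80 ± 0.78 (adjusted p = 0.128) and RAD50 at 0.39 ± 0.47 (adjusted p = 0.184), a further probe of which gave -0.51. Their median by pair was -0.03, 0.06, 0.94 and 0.24, with pair 3 apart.

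Of 14 mitotic genes 0 rose and 1 fell (7.14% called, near the 10.7% of all genes), the kinesin KIF20A, at -0.85 ± 0.39 (adjusted p = 0.0539). PLK1, CCNB1 and CCNB2, which drive entry into mitosis, gave -0.59 ± 0.48, -0.37 ± 0.25 and -0.34 ± 0.26 and were not called. The median of the list was -0.81, -0.79, 0.95 and -0.47 in pairs 1 to 4, so pair 3 ran against the others. Among 16 genes of G1/S and replication 0 rose and 0 fell, and 0 of 10 histone genes passed, beside 10.7% of all genes called. Of the former the 4 with the lowest adjusted p were RRM1 at 0.44 ± 0.24, MCM5 at -0.57 ± 0.88, CCND1 at 0.31 ± 0.40 and E2F1 at -0.50 ± 0.86. A further probe of CCND1 was called, at 0.51 (adjusted p = 0.0547). The histone genes HIST1H4C, HIST1H2AC, HIST1H2BK and HIST1H3D gave -0.32, -0.59, -0.58 and 0.22.

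Most contractile genes fell. Of 12 smooth muscle contractile genes 0 rose and 8 fell (66.7%, beside 4.91% of all genes lower), and the median was -0.99 (-0.59 without replicate 4). ACTA2 and MYH11 are given above. ACTG2, smooth muscle γ-actin, gave -1.08 ± 0.79 (adjusted p = 0.0601), DES, the muscle intermediate filament desmin, -1.31 ± 0.95 (adjusted p = 0.0601), and SMTN, which binds actin, -0.70 ± 0.29 (adjusted p = 0.0606). The median by pair was -0.61, -0.50, -0.58 and -2.01, with the lowest value in pair 4. Of collagen and matrix genes 22.2% were called, beside 10.7% of all genes, with 1 of 18 higher, 3 lower and a median of -0.29. COL5A1, a fibrillar collagen, fell by 0.99 ± 0.45 (adjusted p = 0.0323), with groups that did not overlap. TNC, the matrix glycoprotein tenascin C, gave -1.08 ± 0.61 (adjusted p = 0.0389) and COL6A2 -0.70 ± 0.27 (adjusted p = 0.0976), whereas THBS2, a thrombospondin, rose by 0.43 ± 0.17 (adjusted p = 0.0981).

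Of 18 genes of the TGF-beta and BMP pathways 3 rose, 2 fell and 13 did not pass (27.8% called, beside 10.7% of all genes). The risers were INHBA, the activin A subunit, at 1.57 ± 0.56 (adjusted p = 0.0251), SKIL, a repressor of SMAD proteins, at 0.92 ± 0.37 (adjusted p = 0.0293), and, named after its values were seen, the ligand BMP2 at 1.29 ± 1.06 (adjusted p = 0.0764). BMP4 had levels of 11.67, 11.61, 10.76 and 10.95 on the irradiated arrays and 12.54, 12.60, 12.58 and 12.08 on the control arrays. Its groups did not overlap, and its ratio was -1.20 ± 0.42 (adjusted p = 0.0261). SMAD6, the inhibitor of BMP signals, gave -1.09 ± 0.65 (adjusted p = 0.0402).

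Metabolic, ribosomal and reference genes had medians near 0. Of 13 cholesterol synthesis genes 2 rose and 1 fell (23.1% called, beside 10.7% of all genes), with INSIG1, which retains the sterol sensor, at 0.97 ± 0.39 (adjusted p = 0.0301), the synthase HMGCS1 at 0.75 ± 0.18 (adjusted p = 0.0571), MVD at -0.62 ± 0.45 (adjusted p = 0.0912) and the regulator SREBF2 at -0.38 ± 0.27 (adjusted p = 0.117); a further probe of HMGCS1 was not called. Of 12 hypoxia and glycolysis genes 0 passed. HK2 gave 0.48 ± 0.26 (adjusted p = 0.108), with a further probe called at 0.75, and DDIT4, an inhibitor of mTOR, -1.10 ± 1.34 (adjusted p = 0.135), with -3.11 in pair 3. Of 20 ribosomal protein genes 0 passed, with a median of -0.14, but -0.80 in pair 3, and RPL8, RPL3, RPS19 and RPL32 at -0.28, -0.29, -0.26 and -0.18. Among 12 common reference genes PPIA was called, at -0.48 ± 0.12 (adjusted p = 0.0979), although its 6 other probes were not, and GAPDH gave -0.19 ± 0.09 (adjusted p = 0.417), TFRC 0.24 ± 0.27 (adjusted p = 0.264) and PGK1 -0.29 ± 0.15 (adjusted p = 0.195).

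The ratios differed between the 4 pairs. The SD of the log2 ratio over all probes was 0.375, 0.490, 0.822 and 0.492 in pairs 1 to 4, and 1.76, 4.06, 20.9 and 4.33% of probes differed at least 2-fold. Pair 3, which holds control 3, the dimmest array, was widest. Metallothioneins with zinc export, oxidative stress genes and cytokines had their highest medians in pairs 1 and 2, immediate early genes (0.36, 0.22, 1.66 and 0.51) and MAP kinase feedback regulators (-0.02, -0.000, 0.84 and 0.26) in pair 3, and contractile genes their lowest in pair 4. These contrasts between pairs have no replicate and were not tested. Mitotic, histone, interferon and ribosomal protein genes changed sign between pairs.

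**Figure D4:**
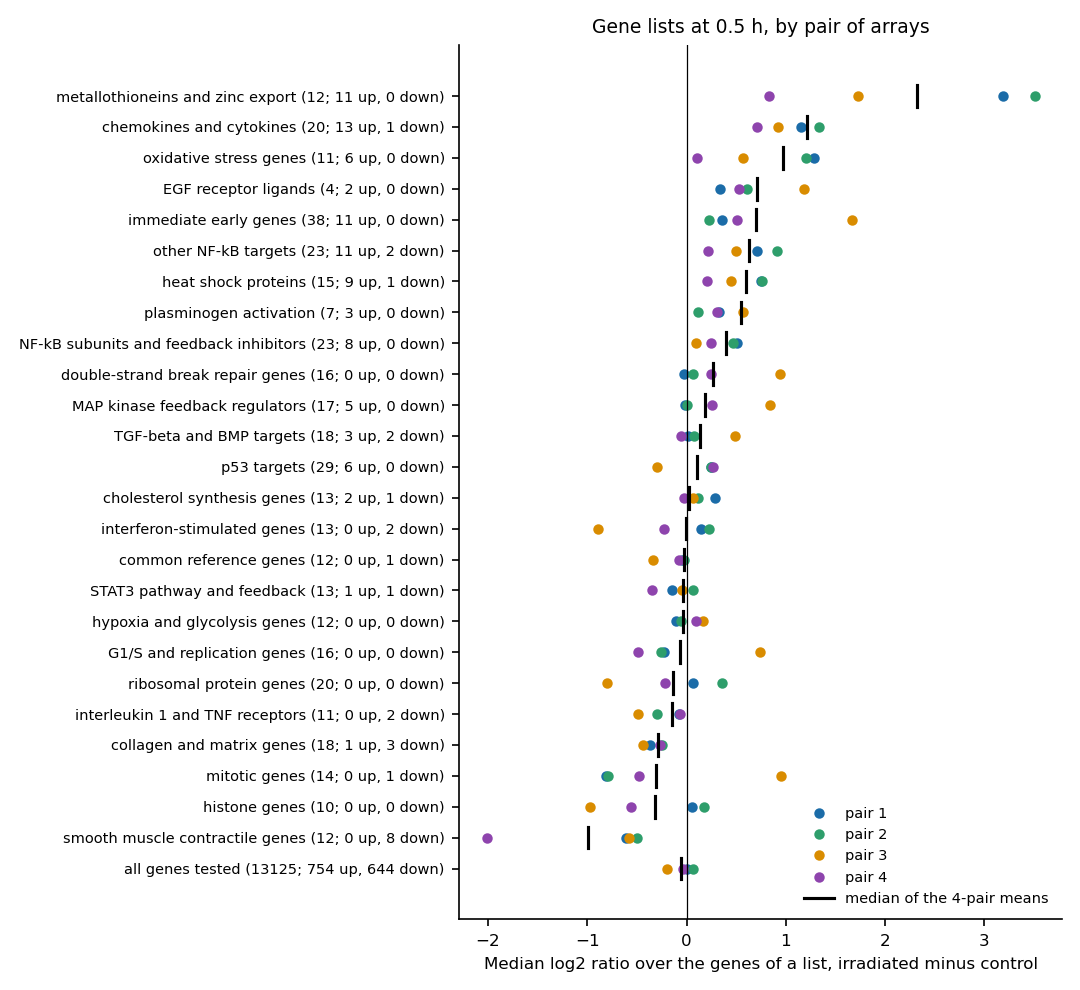
For each gene list the median log2 ratio of its genes is given in each of the 4 pairs (colored points) and for the mean of the pairs (black bars), with the number of genes tested and called higher and lower in brackets and all genes tested at the bottom. Metallothioneins and zinc export have the highest median (2.32) and a spread from 0.83 to 3.50, contractile genes the lowest (-0.99), and mitotic genes stand at 0.95 in pair 3 and below 0 in the other 3.

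Of 123 called genes followed through the 18 other fits tried, 55 were called in 10 or more. Some called genes named in the text, such as BMP2 and THY1, were not followed. TNFAIP3 and PTGS2 were called in 16 of the 18 other fits tried, all but those without replicate 2 and with replicates 1 and 2 averaged. BIRC3, CXCL2, CXCL3, SOD2, FGF2, NAMPT, SLC16A6 and SLC19A2 were called in 15. Without the replicate block 14 probes were called, all of them higher. Besides TNFAIP3, PTGS2, CXCL3, BIRC3 and SOD2 these include SLC16A6, a monocarboxylate transporter, NAMPT, the rate-limiting enzyme of NAD salvage, SLC19A2, a thiamine transporter, and the growth factor FGF2, all named after their values were seen. SLC16A6 had levels of 10.43, 10.71, 11.27 and 10.60 on the irradiated arrays and 8.66, 8.29, 8.21 and 9.12 on the control arrays, and its ratio was 2.18 ± 0.70 (adjusted p = 0.0227). NAMPT gave 1.30 ± 0.35 (adjusted p = 0.0227), SLC19A2 1.28 ± 0.27 (adjusted p = 0.0227) and FGF2 1.32 ± 0.45 (adjusted p = 0.0251), and in these genes no irradiated level reached down to a control level.

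Irradiated and bystander cells were compared directly, to ask whether a hit adds to the response of neighbors in the same dish. With limma 0 of 25245 probes were called (0%), the lowest adjusted p was 1.00, and 543 probes had an unadjusted p under 0.05. The 95% interval of the difference had a median half-width of 0.383 on the log2 scale, and for 2364 of the 2504 probes called against control it lay within 1 of 0. Those probes were called in the same fit with the same residual spread, so narrow intervals among them are in part given by the choice. The share over all probes was not counted. The difference was -0.12 (95% interval -0.67 to 0.44) in PTGS2, 0.08 (95% interval -0.29 to 0.46) in TNFAIP3 and 0.30 (95% interval -0.19 to 0.79) in ACTA2. IL8, at -0.06 (95% interval -1.32 to 1.21), SERPINB2, at 0.32 (95% interval -1.37 to 2.02), and HSPA1A, at 0.09 (95% interval -1.46 to 1.65), have intervals that reach beyond a doubling in both directions. The bystander levels of SERPINB2 were 14.02, 14.21, 12.92 and 9.28, high in replicates 1 to 3 and within the range of the controls in replicate 4. Both groups share the same controls, and their ratios to control were 3.54 and 3.59 for IL8 and -1.63 and -1.93 for ACTA2. Leaving out each replicate in turn left the count at 0. The lowest p-values belonged in 1 direction to tcag7.1017, PPM1K, a mitochondrial phosphatase, PRCD, PIGZ and POU5F1, which were 0.37 to 0.94 higher in irradiated cells, and in the other to CBWD6, BZW1P1, PZP, a protease inhibitor, tcag7.1239 and EEF1A2, a translation elongation factor, with differences of -0.56 to -0.91.

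At the next time point, 1 h, the ratios to control were mostly smaller. For probes called higher at 0.5 h the median log2 ratio was 0.69 then and 0.48 at 1 h, and for those called lower -0.64 and -0.43. The probes were chosen for their size at 0.5 h, so the first value of each pair is not independent of the choice. At 1 h 0 probes were called (0%; lowest adjusted p 0.138), with 6796 at an unadjusted p under 0.05. The test of the difference between the 2 times, over 24 arrays, called 0 probes (0%; lowest adjusted p 1.00; 645 at an unadjusted p under 0.05). Without replicate 4 it called 80, and without each of the others 0. Replicates 3 and 4 of 0.5 h carry each other's numbers in the series matrix. Whether their numbers mark the same experiments at 1 h is thus uncertain, and the counts without replicate 3 or 4 rest on it. The count over all replicates does not, since numbers were matched only within a time. The difference between the ratios of the 2 times was 2.71 (SE 0.80) in IL8, 2.72 (SE 0.94) in SERPINB2 and -0.80 (SE 0.39) in ACTA2. The lowest p belonged to SOD2, PPP1R15A, CXCL5, ING1, a chromatin reader, and the phospholipase PLA2G4C, whose ratios were 1.23, 1.20, 1.53, 0.57 and 0.78 at 0.5 h and 0.13, 0.26, -0.002, -0.04 and 0.04 at 1 h, and in the other direction to PLK1, CCNB2, CCNB1, FAM64A, a gene of dividing cells, and C9orf140, with -0.59, -0.34, -0.37, -0.56 and -0.76 and 0.24, 0.37, 0.20, 0.27 and 0.19. The arrays of the 2 times were on different slides, so time and slide cannot be told apart.

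**Figure D5:**
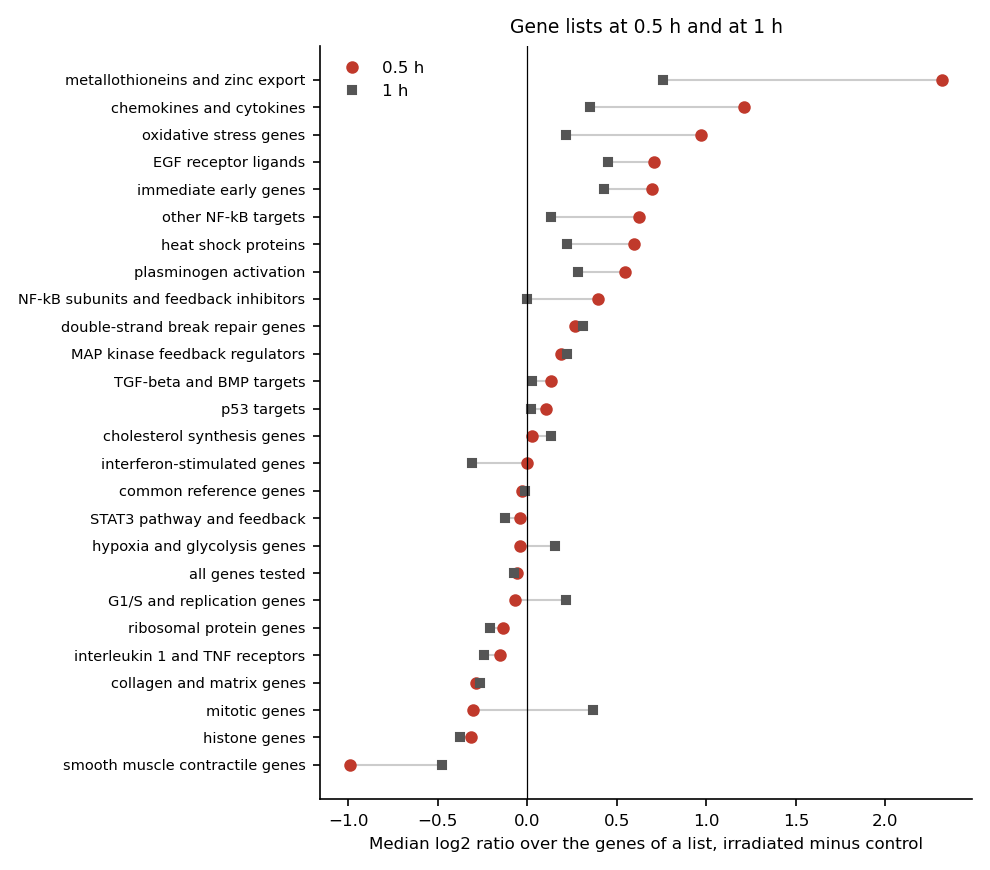
Median log2 ratio of irradiated to control cells over the genes of each list at 0.5 h (red circles) and at 1 h (gray squares). The medians of metallothioneins and zinc export fall from 2.32 to 0.76 and of chemokines and cytokines from 1.21 to 0.35, and that of mitotic genes stands at -0.31 and 0.37.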

How the data were processed

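IMR-90 total RNA was labelled with Cy3 and hybridised to 1-colour Agilent whole human genome arrays, 1 sample per array, with 41000 probes. Per the file headers, the authors' scanner files were made with Agilent Feature Extraction 9.1.3.1, and the deposited intensities are spot signals with local background subtracted and spatial trends removed, not normalized between arrays. The deposited series matrix holds log2 values of the same signals. For each array of 0.5 h these matched a scanner file of the same group within 0.001 for at least 99.89% of spots, with replicates 3 and 4 exchanged in all 3 groups, so pairs were kept; the numbers used here are those of the scanner files. The matrix served as an alternative only.

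Repeated spots were averaged, each array was shifted to the same 75th percentile (the study used no scaling between arrays), values were floored at 4 and log2 taken. By the study's filter, a probe was kept where at most 10% of its 72 spots were near background or uneven, which left 25246, of which 25245 could be fitted. Differences were tested with limma 3.58.1 (lmFit and eBayes with an intensity trend, R 4.3.3) over the 12 arrays of 0.5 h, or 24 of 0.5 h and 1 h. Group and replicate number within each time were the terms. P-values were two-sided, adjusted by Benjamini-Hochberg over all probes tested, and called below 0.10. The number marks an independent experiment in the study's methods and was kept as a block for that reason. Same-number correlations of deviations from group means had a median of 0.521 and a lowest value of 0.111. Different numbers gave a median of -0.150 and a highest value of 0.327, so the 2 ranges overlapped. Irradiated with bystander arrays, which shared a dish, gave 0.74, 0.55, 0.70 and 0.80 in replicates 1 to 4. Irradiated with control arrays gave 0.41, 0.49, 0.11 and 0.82, and bystander with control arrays 0.44, 0.15, 0.11 and 0.63. Irradiated 3 correlated at 0.113 with control 3, 0.206 with control 1 and 0.147 with control 2, and bystander 3 at 0.111, 0.119 and 0.214, so the pairing of control 3 is the weakest.

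Gene symbols are those of the array files, and a gene is the probe with the highest mean over the 8 arrays. Named genes are the 15 largest rises and falls called with the same sign in 4 pairs, up to 4 genes of lowest adjusted p in each list, up to 12 called members of lowest p in the lists of chemokines and cytokines, NF-kB and immediate early genes, the 5 lowest p in each direction of the direct tests, and the largest bounds. Genes, lists and tests were chosen with earlier results of these data known. List members off the array or below the filter were not tested. Alternatives covered scaling, background correction, filter, block, slide, arrays in the fit, trend and each replicate left out. Promoters came from RefSeq, GRCh38.p14, and figures were drawn in Python. The number of arrays limits the precision.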

Additional observations from a re-analysis of the deposited data

Results flagged for a closer look

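The groups of 4 arrays examined were the irradiated and the control levels of most genes named, and quality measures of the arrays. In 35 of 340 such groups (10.3%), 1 array lay farther from the others than Dixon's 95% critical value allows. Chance gives about 1 in 20 groups. Control 3 was such an array by its 75th percentile before scaling, at 9.60 on the log2 scale, and by its share of spots well above background, at 65.7%.

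The level of HMGCS1 on control 2 stood apart, at 11.05. The levels of CHRDL2, REL, GCH1, NR4A2, TNC, ATM, POU5F1 and RRM2B on control 3 stood apart, at 12.60, 6.19, 5.84, 10.73, 16.55, 3.52, 6.80 and 7.43. The levels of CXCL3, MMP10, EGR1, SOCS1, HSPH1 and BMP4 on control 4 stood apart, at 10.91, 9.36, 14.28, 11.68, 13.94 and 12.08. The levels of NEFM, CHRDL2, LIF, EGR3, HES1, PPIA and PLA2G4C on irradiated 3 stood apart, at 5.99, 8.87, 15.70, 12.49, 12.52, 16.57 and 8.84. The levels of IL6, ACTA2, IL1A, IL11, IRAK3, HSPB1, SLC7A11, TXNRD1, INHBA, KIF20A and CCNB1 on irradiated 4 stood apart, at 11.33, 12.19, 8.68, 14.05, 8.59, 13.72, 10.90, 10.80, 13.51, 8.93 and 11.06. Of these genes, those for chemokines, cytokines and oxidative stress mostly stood apart on replicate 4. The immediate early genes EGR3 and HES1 stood apart on irradiated 3, NR4A2 on control 3 and EGR1 on control 4. The causes were not tested.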

How the results depend on the processing

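The 2504 probes called against control kept their direction under each alternative in which they were tested. They were chosen on the same arrays, so this direction is not independent of the choice. Their number depended on the model. With the replicate block it was 2504, and without it 14 (14 higher and 0 lower). Exchanging numbers 3 and 4 between the groups left 4 (4 higher and 0 lower). The slide block gave 45 (41 higher and 4 lower), slide and replicate block together 310 (213 higher and 97 lower), and the replicate block on the 8 arrays alone 647 (409 higher and 238 lower). No scaling between arrays gave 206 (113 higher and 93 lower), normexp background correction 1112 (628 higher and 484 lower) and no filter on dim probes 677 (462 higher and 215 lower). Quantile normalization (3047), the same median (2515), the series matrix values (2501), a filter on the 8 arrays (2535) and no intensity trend (2169) left it within 1.5 times.

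Leaving out 1 replicate gave 0 to 1447 calls, 0 to 864 higher and 0 to 583 lower. The count of 0 without replicate 2 had 5403 probes at an unadjusted p under 0.05 and a lowest adjusted p of 0.177. Averaging replicates 1 and 2 into 1, an alternative chosen after seeing how close controls 1 and 2 were, gave 0 calls, 0 higher and 0 lower, with 5888 probes at an unadjusted p under 0.05 and a lowest adjusted p of 0.124. Both have fewer samples, and other causes were not tested. The test of 0.5 h against 1 h called 0 to 80 probes when 1 replicate was left out, and that against bystander cells 0 in each case. Calls within the gene lists also depended on the model. Summed over the lists, 51 were higher and 9 lower with the replicate block on the 8 arrays alone. Unscaled arrays gave 43 higher and 9 lower, and no replicate block 5 and 0. The median kept its sign under each alternative for 16 of 25 gene lists. The other 9, all with medians between -0.14 and 0.13, changed sign at least once: p53 targets, the STAT3 pathway, interferon-stimulated genes, TGF-beta and BMP targets, G1/S, cholesterol, hypoxia, ribosomal protein and reference genes. With 1 replicate left out the median ranged from 0.35 to 0.74 for immediate early genes, 0.03 to 0.26 for MAP kinase feedback regulators, 0.42 to 0.81 for other NF-kB targets, -0.26 to -0.08 for interleukin 1 and TNF receptors, 0.64 to 1.27 for oxidative stress genes, -1.07 to -0.59 for contractile genes, -0.76 to -0.11 for mitotic genes, -0.49 to -0.14 for histone genes and 0.13 to 0.44 for double-strand break repair. The median of collagen and matrix genes moved to -0.17 with quantile normalization and that of plasminogen activation ranged from 0.34 to 0.63 without 1 replicate; the causes were not tested. The number of arrays and, for dim probes, signal close to background limit what could be called.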

Other observations

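Called genes outside the lists, named here after their values were seen, included enzymes and transporters. KYNU, an enzyme of tryptophan breakdown, rose by 1.93 ± 0.56 (adjusted p = 0.0213), HSD11B1, which regenerates cortisol, by 1.62 ± 0.68 (adjusted p = 0.0251), and G0S2, an inhibitor of fat lipase, by 1.78 ± 0.53 (adjusted p = 0.0242). PLA2G4A, the cytosolic phospholipase that feeds PTGS2, rose by 1.08 ± 0.40 (adjusted p = 0.0242) and SLC39A8, a zinc importer, by 1.40 ± 0.60 (adjusted p = 0.0323). CCK, the precursor of cholecystokinin, gave 1.53 ± 0.41 (adjusted p = 0.0227) and AKR1B10, an aldo-keto reductase, 2.04 ± 2.12 (adjusted p = 0.0969) with a wide spread between pairs.

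Among falls outside the lists were PHGDH, the entry enzyme of serine synthesis, at -1.37 ± 0.81 (adjusted p = 0.0323), CDC42EP3, an effector of CDC42, at -1.29 ± 0.61 (adjusted p = 0.0251), TUBB2B, a β-tubulin, at -1.12 ± 0.47 (adjusted p = 0.0239) and OSR1, a transcription factor of mesenchyme, at -1.11 ± 0.24 (adjusted p = 0.0301).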
